A study of Mus musculus with 18 samples.

Results

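The comparison described here sets 3 libraries of mouse CD4+ T cells activated with 1.0 µM of the peptide pPCC (A, B and C) against 3 libraries activated with 0.01 µM, 6 of the 18 libraries of the series. They were taken by their column names from the deposited table of normalized counts, and all 15697 named genes of that table were considered. The T cells came from spleen and lymph node, carried the transgenic 5CC7 T cell receptor, and had spent 4 days on P13.9 cells, a fibroblast cell line that presented the peptide. Every activated group shares the receptor, the presenting cells and the day, and the groups differ in the peptide concentration. The series also holds activated cells at 10.0 and 0.1 µM, P13.9 cells alone and naive CD4+ T cells, 3 libraries each. Its title names GATA3, T-bet and how strong the first receptor signal is. The comparison asks how a 100-fold difference in peptide dose shows in the cells after 4 days. In the sample numbers of the labels, 1.0 and 0.01 µM lie in 1 series with the naive and P13.9 libraries, and 10.0 and 0.1 µM lie in the next; what these numbers mark is not given. No label says that A, B and C are different animals or different cultures. The p-values therefore set the difference between groups only against the spread among these libraries. They may not extend to other animals or cultures.

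T cells that meet peptide on a presenting cell signal through the T cell receptor complex, leave the resting state, divide and raise their glucose uptake. Which transcription factors they then express shapes their effector type: T-bet, the product of Tbx21, drives the T helper 1 type, and GATA3 the T helper 2 type. Fibroblasts make extracellular matrix and, when exposed to inflammatory cytokines, chemokines that attract neutrophils and monocytes, so messenger RNA of the presenting cells can be recognised when it stays with the T cells.

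Values below are normalized counts, that is reads divided by 1 scaling factor per library. The named genes held 253612, 397648 and 427315 reads at 1.0 µM and 732987, 539166 and 382374 at 0.01 µM. A single read was worth a value of 0.307 to 0.525 at 1.0 µM and 0.167 to 0.337 at 0.01 µM. The test covered 5897 genes that reached 5 in 3 or more of the 12 activated libraries. At 1.0 µM 655 of them were higher (11.1%) and 698 lower (11.8%) than at 0.01 µM, together 22.9%, by limma on log2(value + 1) at a Benjamini-Hochberg adjusted p below 0.05. All log2 changes below are 1.0 over 0.01 µM on that scale, ± the standard error of the fit, and group means are given ± SD, with n = 3 libraries a group. The values of the groups did not overlap, with all 1.0 µM libraries above, in 1009 genes (17.1%), and with all below in 1255 (21.3%). The median change over all tested genes was -0.05, and 625 of the 1353 called genes differed by at least 1 on the log2 scale, 203 of those that were higher and 422 of those that were lower. With each library rescaled to its total of recovered reads, higher genes made up 38.1% of the calls, against 48.4% as reported.

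Messenger RNA of genes that P13.9 cells express was present in both groups, and far more of it at 0.01 µM. By 7 fibroblast genes (Sparc, Col1a2, Fn1, Serpinh1, Cald1, Cav1 and Mmp14) it amounted to 10.4%, 4.46% and 4.25% of the P13.9 level at 1.0 µM, against 28.5%, 36.5% and 45.9% at 0.01 µM, so the groups did not overlap. The difference was -30.6 percentage points (exact permutation p = 0.1, two-sided, the smallest that 3 against 3 libraries allow). By the same 7 genes the naive libraries gave 5.33%, 4.96% and 3.30%. Libraries 1.0 B and C lay within that range, so these genes do not separate them from naive cells. By 48 genes with no naive read the shares were 5.13% at 1.0 µM and 24.5% at 0.01 µM. For this set the naive share is 0 by selection. It includes the chemokine Ccl7, which was higher at 0.01 µM (60.8) than in P13.9 cells (41.3). A larger P13.9 share lowers the values of genes that only the T cells express and raises those of genes that P13.9 cells express. In such bulk samples fewer cells of a type and less RNA per cell cannot be told apart. Read as parts of a library, these shares leave 93.6% at 1.0 µM and 63.0% at 0.01 µM by the first set. That is a log2 ratio of 0.57, against 0.33 by the second set. These are rough estimates, because the markers differ. At 0.01 µM Fn1 was at 33.7 against 277 in P13.9 cells, the lowest share of the 7. Cald1 was at 32.8 against 65.7, the highest. The 394 tested genes that averaged at most 1 in P13.9 cells had a median change of 0.55, against -0.08 in the other 5503. The summed value of 10 CD4 T cell markers was 1705 to 1819 at 1.0 µM and 1142 to 1321 at 0.01 µM. Library 1.0 B stood apart from 1.0 A and C. Among ribosomal protein genes, 10 of 50 had a log2 difference under -1 from the mean of A and C, against 6.24% of all tested genes.

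**Figure D1:**
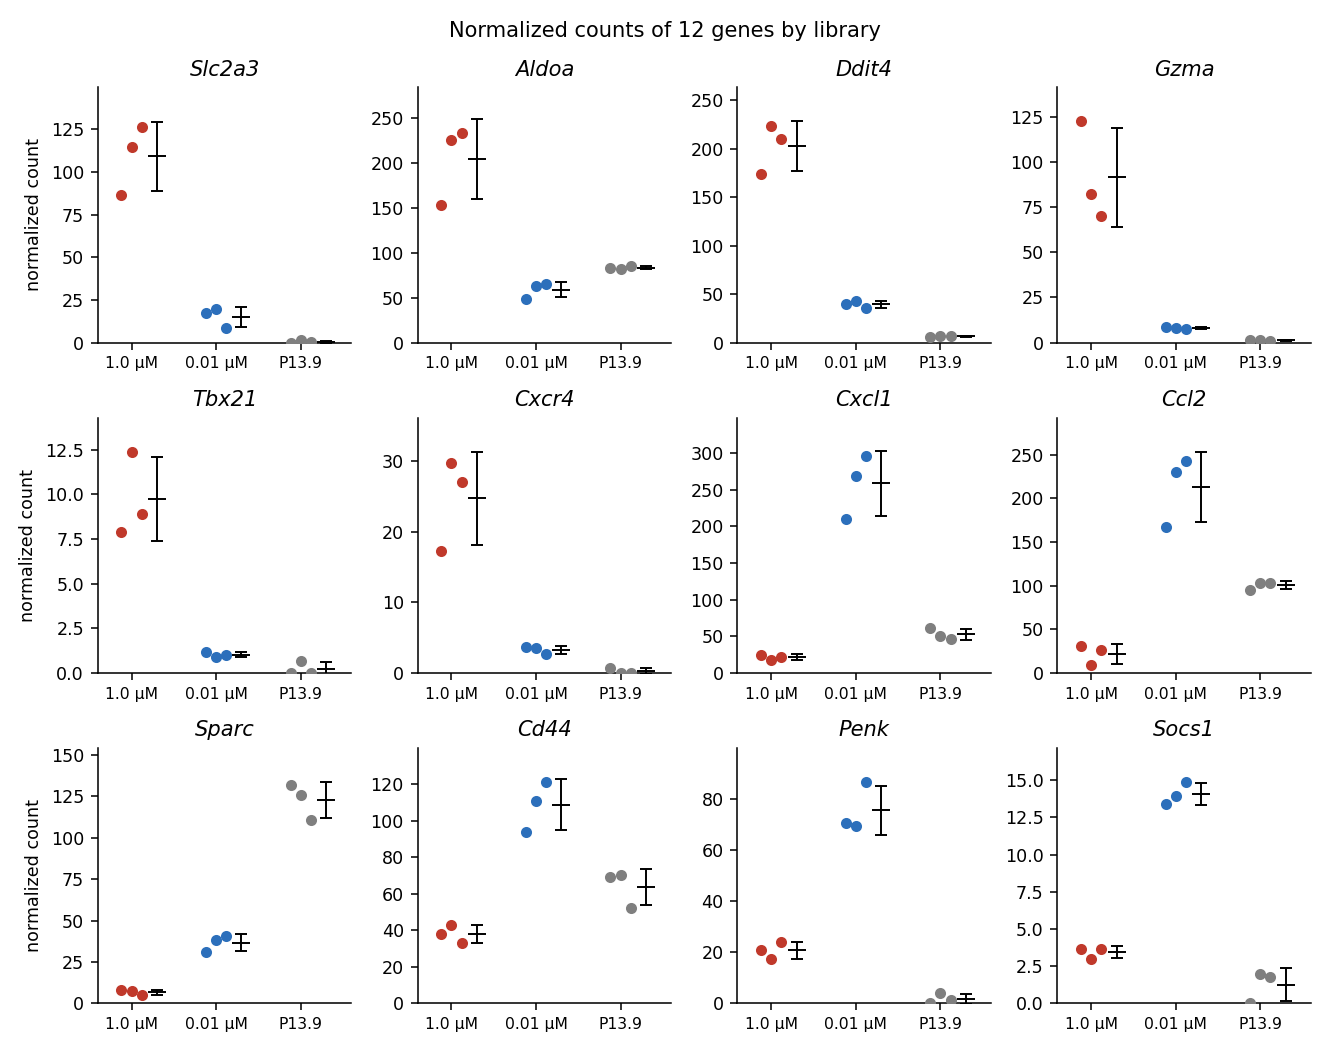
Normalized counts (vertical axes, linear, from 0) of 12 genes in each library at 1.0 µM, at 0.01 µM and in P13.9 cells alone; points are libraries, and the bar beside them gives the mean ± SD (n = 3). In none of the 12 genes do the 1.0 and 0.01 µM libraries overlap. Sparc and Aldoa are higher in P13.9 cells than at 0.01 µM, while Slc2a3, Gzma, Tbx21, Cxcr4, Penk and Socs1 average at most 1.78 in P13.9 cells.

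Genes of glucose uptake and glycolysis rose together at 1.0 µM. Of 21 tested members, 17 were higher and 0 lower, with a median change of 1.42. Their summed value was 1309, 1756 and 1758 in the 1.0 µM libraries, against 509.8, 571 and 572 in the 0.01 µM libraries. Slc2a3, a glucose transporter, had values of 86.6, 115 and 126 in the 1.0 µM libraries, against 17.4, 19.5 and 8.43 in the 0.01 µM libraries. Slc2a3 changed by 2.83 ± 0.24 (adjusted p = 6.05e-07). The lowest 1.0 µM library thus stood well above the highest at 0.01 µM. Slc2a1, the main glucose transporter of activated T cells, had 49.3, 64.5 and 66.7 in the 1.0 µM libraries, against 14.9, 20.9 and 17.9 in the 0.01 µM libraries. Slc2a1 changed by 1.70 ± 0.17 (adjusted p = 2.44e-06). Aldoa, a glycolytic aldolase, had 153, 226 and 233 in the 1.0 µM libraries, against 49.1, 62.8 and 65.1 in the 0.01 µM libraries. Aldoa changed by 1.76 ± 0.16 (adjusted p = 1.04e-06). Tpi1, triosephosphate isomerase, had 97.6, 131 and 154 in the 1.0 µM libraries, against 30.5, 33.6 and 48.9 in the 0.01 µM libraries. Tpi1 changed by 1.74 ± 0.19 (adjusted p = 9.24e-06). In all 4 genes library 1.0 A was the lowest of its group and still lay above every 0.01 µM library. Galk1, galactokinase, changed by 1.56 ± 0.16 and Mif, a cytokine often counted with hypoxia-induced genes, by 1.36 ± 0.13. Pgm1, which links glycogen to glycolysis, rose by 1.57. The 4 members without a call were Gapdh (0.77), Pgk1 (0.87), Pgam1 (0.73) and the monocarboxylate transporter Slc16a1 (-0.08), named after their values were seen. The P13.9 mean was above the 0.01 µM mean for Aldoa (83.5), Tpi1 (47.2) and Slc2a1 (29.3) and below it for Slc2a3 (0.593). With the P13.9 share subtracted, 18 members were higher by the fibroblast genes and 17 by the genes with no naive read.

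Hypoxia-response genes, which the factor HIF-1 induces, were higher in 8 and lower in 2 of 18 tested members (median 0.70). Ddit4, an inhibitor of mTORC1, had values of 174, 224 and 210.0 in the 1.0 µM libraries, against 39.7, 42.7 and 36.1 in the 0.01 µM libraries. Ddit4 changed by 2.33 ± 0.16 (adjusted p = 2.70e-08). Egln3, a prolyl hydroxylase that marks HIF-1 for degradation and is itself induced by it, had 47.2, 82.2 and 76.5 in the 1.0 µM libraries, against 17.8, 22.5 and 12.1 in the 0.01 µM libraries. Egln3 changed by 1.92 ± 0.22 (adjusted p = 1.50e-05). Both genes separated the doses completely. Bnip3, a mitophagy receptor, rose by 1.66 ± 0.27 and Ankrd37 by 1.82 ± 0.30. Car9, a carbonic anhydrase, was lower, with means of 4.08 at 1.0 µM and 13.1 at 0.01 µM and a P13.9 mean of 54.9. Car9 changed by -1.50 ± 0.31 (adjusted p = 0.00194); its change was 0.64 after either subtraction of the P13.9 share, with no call. Hif1a, which encodes the oxygen-regulated subunit itself, fell by 0.70 (P13.9 mean 30.9) and was named after its values were seen.

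Promoter windows of 3 genes that rose show the letters ACGTG, the core of the element that HIF-1 binds. The windows run from 250 bases before to 50 after the RefSeq start site (GRCm38.p6), 5′ to 3′ on the gene's strand, and capitals mark ACGTG, at -36 in Slc2a1, -229 in Egln3 and -187 in Ddit4 relative to the start. Slc2a1 lies at chr4:119108495-119108794 (forward strand), Egln3 at chr12:54203825-54204124 (reverse strand) and Ddit4 at chr10:59951721-59952020 (reverse strand).
Slc2a1: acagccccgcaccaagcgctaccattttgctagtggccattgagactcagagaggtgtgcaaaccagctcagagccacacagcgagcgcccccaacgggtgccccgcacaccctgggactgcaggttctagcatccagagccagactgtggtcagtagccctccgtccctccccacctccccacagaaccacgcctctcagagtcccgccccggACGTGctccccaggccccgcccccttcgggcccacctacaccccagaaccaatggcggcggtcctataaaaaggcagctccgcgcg
Egln3: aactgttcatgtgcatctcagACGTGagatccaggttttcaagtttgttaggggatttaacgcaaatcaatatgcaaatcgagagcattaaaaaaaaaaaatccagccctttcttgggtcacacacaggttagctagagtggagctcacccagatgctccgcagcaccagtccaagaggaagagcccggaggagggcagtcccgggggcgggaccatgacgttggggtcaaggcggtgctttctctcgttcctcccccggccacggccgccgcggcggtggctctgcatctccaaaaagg
Ddit4: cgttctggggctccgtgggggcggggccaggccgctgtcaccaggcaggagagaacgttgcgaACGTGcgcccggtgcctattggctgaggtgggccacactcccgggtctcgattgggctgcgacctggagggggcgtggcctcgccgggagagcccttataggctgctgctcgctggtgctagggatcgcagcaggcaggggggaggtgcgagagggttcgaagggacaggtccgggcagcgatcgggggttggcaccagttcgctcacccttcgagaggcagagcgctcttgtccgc
ACGTG was searched on both strands, it is a short motif, and it was added after the values were seen. At least 1 window held it in 21.8% of 27025 genes, in 11 of the 16 called glycolysis genes that have a window (68.75%) and in 9 of the 10 called hypoxia genes (90%), both directions counted. Among all listed genes with a window, called or not, it was held by 16 of 24 for glycolysis (66.7%) and 13 of 16 for hypoxia (81.25%). The motif was thus common in both lists as a whole and set called genes little apart. The window of Tpi1, which also rose, did not hold it. Motifs like those of the T-bet and GATA3 families, also searched, had no match in these 3 windows. A match is a description of the sequence and not a binding site.

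T-bet and granzyme genes were higher at 1.0 µM, while Gata3 did not pass the test as the values were deposited. Tbx21 had values of 7.87, 12.4 and 8.92 in the 1.0 µM libraries, against 1.17, 0.927 and 1.01 in the 0.01 µM libraries. Tbx21 changed by 2.38 ± 0.26 (adjusted p = 7.45e-06). All 1.0 µM libraries exceeded every 0.01 µM library, with 81 reads over the group at 1.0 µM and 14 at 0.01 µM. Gata3 had 75.6, 46.1 and 64.3 in the 1.0 µM libraries, against 86.2, 74.9 and 83.7 in the 0.01 µM libraries. Gata3 changed by -0.42 ± 0.17 (adjusted p = 0.0846). Libraries 1.0 B and C lay below every 0.01 µM library, while 1.0 A did not. After subtraction of the P13.9 share Gata3 was called lower, with a change of -0.98 by the fibroblast genes (adjusted p = 0.00657) and -0.74 by the other set (adjusted p = 0.0146). On the log2 scale, with 1 added to each value, the Tbx21 to Gata3 ratio was -2.55 ± 0.66 at 1.0 µM and -5.34 ± 0.05 at 0.01 µM (SD, n = 3). The difference was 2.79, with an exact permutation p of 0.1, two-sided, the smallest possible here. Its size depends on the added number, at 3.51 with 0.1 added and 1.67 with 5 added. Both genes are nearly absent from P13.9 cells (means 0.223 and 2.21), and their ratio is formed within a library.

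Of 13 tested T helper 1 genes, 7 were higher and 0 lower (median 0.64), and 4 and 5 were higher after the subtractions. Cxcr3, the chemokine receptor that T-bet induces, had 55 reads over the 1.0 µM libraries and 1 over the 0.01 µM libraries, a depth-adjusted ratio of 89.4 with an exact 95% counting interval of 15.4 to 3595. Il12rb2, a subunit of the interleukin-12 receptor, had 4.20, 6.02 and 10.5 in the 1.0 µM libraries, against 1.17, 1.62 and 1.69 in the 0.01 µM libraries. Il12rb2 changed by 1.59 ± 0.38 (adjusted p = 0.00562); its adjusted p was 0.0524 after the fibroblast-gene subtraction. Bhlhe40, a regulator of cytokine production, rose by 0.89 ± 0.18, and Irf1, an interferon-regulated factor, by 0.63 ± 0.15. Ifng was below the filter, with 3 reads at 1.0 µM and 6 at 0.01 µM. Among 9 T helper 2 genes, Nfil3, a bZIP transcription factor, was higher (log2 change 1.23 ± 0.17, adjusted p = 0.000102) and Il4ra, the interleukin-4 receptor chain, lower, with means of 24.0 at 1.0 µM and 49.7 at 0.01 µM and a P13.9 mean of 9.11. Il4ra changed by -1.04 ± 0.29 (adjusted p = 0.0136). Il4ra lost its call without 1.0 C, 0.01 A or 0.01 B (adjusted p up to 0.0777). Il13 was at 21.1 ± 7.44 at 1.0 µM and 34.7 ± 4.43 at 0.01 µM with no call. Il13 changed by -0.75 ± 0.31 (adjusted p = 0.0857); after the subtractions it was called lower (-1.28 and -1.05, adjusted p = 0.0243 and 0.0491). In the T helper 2 list as a whole 1 gene was higher and 1 lower as reported, each 11.1%, near the shares of all tested genes. Lower were 4 after each subtraction, and 3 when rescaled to recovered reads or by quantiles. Maf, a factor that activates Il4, was level between the doses (change 0.01 ± 0.25). Of the 5 T helper 17 genes, 3 were lower, Ccl20 (means 0.452 at 1.0 µM and 7.33 at 0.01 µM, P13.9 mean 4.01), Tmem176a (P13.9 mean 52.6) and Tmem176b (P13.9 mean 49.8). P13.9 cells express all 3. After the subtractions Ccl20 was still called lower (-3.04 and -2.87). Tmem176b was called lower only by the genes with no naive read (adjusted p = 0.0194), and Tmem176a by neither set.

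Granzymes, serine proteases of cytotoxic granules, were among the largest rises. Gzma had values of 122, 82.2 and 70.1 in the 1.0 µM libraries, against 8.71, 8.35 and 7.42 in the 0.01 µM libraries (log2 change 3.30 ± 0.22, adjusted p = 2.09e-08), a ratio of means of 11.2. Gzmb had 14.2, 13.04 and 29.8 in the 1.0 µM libraries, against 2.51, 4.40 and 3.71 in the 0.01 µM libraries. Gzmb changed by 2.07 ± 0.27 (adjusted p = 5.54e-05). Neither gene overlapped between the doses. Lamp1, a lysosomal membrane protein (P13.9 mean 73.8), was lower, a call lost without 0.01 A, 0.01 B or 1.0 C (adjusted p 0.0632 to 0.0646) and after the subtractions. The other 2 of 5 tested cytotoxic granule genes were not called. Markers of CD8 T cells, which could bring granzymes, summed to a value of 0.525 to 2.15 at 1.0 µM and 0 to 0.232 at 0.01 µM over both genes listed, Cd8a and Cd8b1. They moved in the same direction at very low values, and their part in the granzyme change was not tested. The interleukin-2 receptor chain Il2rb had 132, 243 and 176 in the 1.0 µM libraries, against 80.6, 79.8 and 64.1 in the 0.01 µM libraries. Il2rb changed by 1.25 ± 0.20 (adjusted p = 0.000302). Il2ra, its high-affinity partner, was at 67.9 ± 0.677 at 1.0 µM and 85.6 ± 2.23 at 0.01 µM with no call. Il2ra changed by -0.33 ± 0.12 (adjusted p = 0.0617), and after the subtractions it was called lower (-0.90 and -0.65, adjusted p = 0.000558 and 0.00162). Id2, an inhibitor of E proteins, had 228, 369 and 204 in the 1.0 µM libraries, against 111, 138.9 and 105 in the 0.01 µM libraries. Id2 changed by 1.13 ± 0.18 (adjusted p = 0.000309). Ctla4, an inhibitory receptor, rose by 1.38 ± 0.28 and had no read in P13.9 cells. Id2 and Ctla4 kept their direction after the fibroblast-gene subtraction, with adjusted p-values of 0.0705 and 0.0868. Prdm1, which encodes Blimp-1, Irf4 and Cxcr6 showed changes of 0.78 ± 0.32, 0.30 ± 0.23 and 0.56 ± 0.28 without a call, and Bcl6, Il4, Il5 and Nr4a1 were below the filter. Basp1, a membrane-associated signalling protein, had 26.2, 71.9 and 60.6 in the 1.0 µM libraries, against 3.68, 3.48 and 5.06 in the 0.01 µM libraries. Basp1 changed by 3.30 ± 0.31 (adjusted p = 1.69e-06). Cmtm7, a membrane protein of the MARVEL family, had 94.0, 87.6 and 89.5 in the 1.0 µM libraries, against 14.4, 14.4 and 15.9 in the 0.01 µM libraries. Cmtm7 changed by 2.52 ± 0.21 (adjusted p = 6.05e-07); its 0.01 µM values were close to the P13.9 mean of 12.2.

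Genes of lymphocyte circulation and homing were higher in 8 and lower in 1 of 14 tested members (median 0.78). After the subtractions 5 and 7 were higher, with medians of 0.25 and 0.48. Cxcr4, the receptor for the stromal chemokine CXCL12, had values of 17.3, 29.8 and 27.1 in the 1.0 µM libraries, against 3.68, 3.48 and 2.70 in the 0.01 µM libraries. Cxcr4 changed by 2.56 ± 0.32 (adjusted p = 3.47e-05). Klf2, the factor that maintains circulation receptors in resting T cells, had 9.45, 22.7 and 16.9 in the 1.0 µM libraries, against 2.34, 2.78 and 6.07 in the 0.01 µM libraries. Klf2 changed by 1.88 ± 0.32 (adjusted p = 0.000443). Both were several-fold higher at 1.0 µM with no overlap, and both were almost absent from P13.9 cells (P13.9 means 0.256 and 1.32). Itgb7, an integrin chain of gut homing, rose by 1.45 ± 0.21, and Selplg, a selectin ligand, by 1.43 ± 0.20. The exception was Cd44, the hyaluronan receptor and a marker of antigen-experienced T cells, with 38.3, 42.8 and 32.9 in the 1.0 µM libraries, against 94.1, 111 and 121 in the 0.01 µM libraries, and a P13.9 mean of 63.8. Cd44 changed by -1.49 ± 0.17 (adjusted p = 8.70e-06). The Cd44 values at 0.01 µM exceeded those of P13.9 cells alone.

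T cell receptor and signalling genes were higher in 8 and lower in 1 of 25 tested members (median 0.36), a shift below that of the genes with little P13.9 signal. Trac, the receptor alpha constant region, was at 614 ± 108 at 1.0 µM and 368 ± 33.6 at 0.01 µM. Trac changed by 0.73 ± 0.15 (adjusted p = 0.00171). Cd3d, a chain of the CD3 complex, was at 89.8 ± 11.4 at 1.0 µM and 47.6 ± 7.09 at 0.01 µM. Cd3d changed by 0.90 ± 0.15 (adjusted p = 0.000406). The kinases Lck and Zap70, which start receptor signalling, rose by 0.98 ± 0.15 and 1.07 ± 0.19. Ptprc, which encodes the phosphatase CD45, went the other way, with 22.04, 42.5 and 28.6 in the 1.0 µM libraries, against 54.6, 48.2 and 48.2 in the 0.01 µM libraries and a P13.9 mean of 0.626. Ptprc changed by -0.73 ± 0.20 (adjusted p = 0.0129) and lost its call without 1.0 A (adjusted p = 0.0677) or 0.01 A (0.0567). With the P13.9 share subtracted, 2 members by the fibroblast genes and 3 by the other set were called higher, and 2 and 1 lower, with medians of -0.16 and 0.04. Trac was not called (adjusted p = 0.639 and 0.143), nor was Cd3d by the fibroblast genes (0.233).

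**Figure D2:**
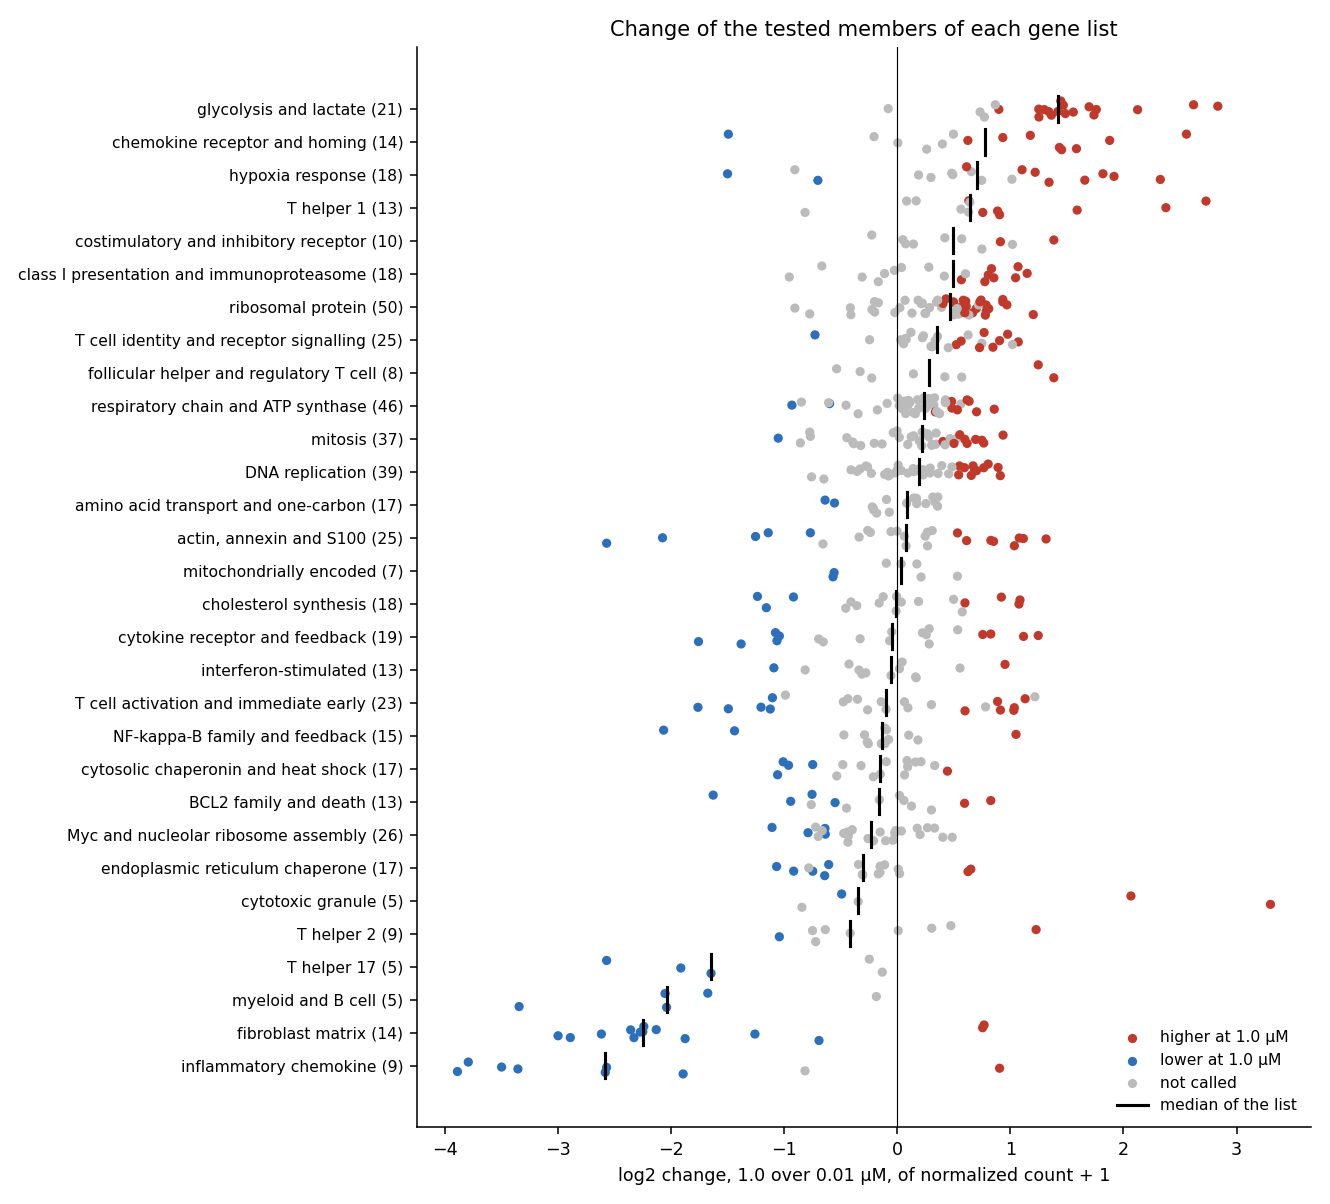
Log2 change at 1.0 over 0.01 µM (horizontal axis) of every tested member of 30 gene lists (number tested in brackets), with red points called higher, blue points called lower, grey points not called and a black bar at each list's median; vertical scatter within a row has no meaning. The glycolysis list has the highest median (1.42) and the inflammatory chemokine list the lowest (-2.58).

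Antigen presentation genes of class I were higher in 8 and lower in 0 of 18 members (median 0.49). Tap1, a peptide transporter, had values of 73.5, 67.9 and 75.3 in the 1.0 µM libraries, against 31.3, 32.0 and 32.7 in the 0.01 µM libraries (log2 change 1.15 ± 0.15, adjusted p = 3.49e-05), with no overlap. Psmb10, an immunoproteasome subunit, rose by 1.07 ± 0.15. The class I heavy chains H2-K1 and H2-D1 changed by 0.83 ± 0.11 and 0.85 ± 0.12, but their sequences resemble each other and other class I genes. How their reads were divided is uncertain. Type I interferon targets showed no common direction, with Isg20 higher (0.95 ± 0.26), Isg15 lower (-1.09 ± 0.31, P13.9 mean 3.12) and 11 of 13 not called. Isg20 lost its call without 0.01 A (adjusted p = 0.0507), and Isg15 without 1.0 C, 0.01 A or 0.01 B (up to 0.0774).

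Cytosolic ribosomal protein genes were higher in 22 and lower in 0 of 50 members (median 0.46); Rpl13 was at 448 ± 10.7 at 1.0 µM and 229.6 ± 31.4 at 0.01 µM and Rplp1 at 518 ± 13.7 at 1.0 µM and 319 ± 21.1 at 0.01 µM. These genes have near-identical pseudogenes, so their reads are uncertain. Without library 1.0 B, where several of them were low, 30 were higher, and after quantile rescaling 6 were. DNA replication genes were higher in 11 and lower in 0 of 39. Mcm5, a helicase subunit, was at 91.8 ± 12.03 at 1.0 µM and 53.4 ± 3.14 at 0.01 µM. Mcm5 changed by 0.76 ± 0.14 (adjusted p = 0.000645). Lig1, DNA ligase, was at 128 ± 31.3 at 1.0 µM and 67.3 ± 14.9 at 0.01 µM. Lig1 changed by 0.91 ± 0.18 (adjusted p = 0.00133). Mitosis genes were higher in 9 and lower in 1 of 37, among them Birc5, survivin, at 160.1 ± 24.4 at 1.0 µM and 103 ± 2.98 at 0.01 µM. Birc5 changed by 0.62 ± 0.13 (adjusted p = 0.00220). After the fibroblast-gene subtraction 4 replication genes were called higher and 3 lower (median -0.02), and 1 mitosis gene higher and 2 lower, Lig1 and Birc5 losing their calls (adjusted p = 0.113 and 0.281). In the respiratory chain and ATP synthase 36 of 46 genes were not called, 8 were higher (17.4%) and 2 lower (4.35%), with a median of 0.24. Among all tested genes 11.1% were higher and 11.8% lower. The glycolysis median of 1.42 thus stood beside 0.24 for respiration and 0.19 for replication. Assembly factors of the nucleolus were lower in 4 (15.4%, near the 11.8% of all tested genes) and higher in 0 of 26, and after each subtraction 1 was lower and 1 higher. Ncl, nucleolin, was at 71.9 ± 17.9 at 1.0 µM and 111 ± 10.7 at 0.01 µM (P13.9 mean 135) and Nop58 at 11.3 ± 2.90 at 1.0 µM and 25.4 ± 4.76 at 0.01 µM (P13.9 mean 30.3). All but Nop58 lost the call in at least 2 of the 6 leave-outs, Ncl without 1.0 C (adjusted p = 0.0502) or 0.01 A (0.0549).

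Most genes that were lower at 1.0 µM were genes that P13.9 cells express. Of the 698, 465 (66.6%) had a P13.9 mean above their 0.01 µM mean, against 49.7% of all tested genes. A further 215 (30.8%) lay between, and 18 (2.58%) had a P13.9 mean of at most 1, against 6.68% of all tested genes. The fibroblast matrix list had 12 lower and 2 higher of 14 members (median -2.25). The higher ones were Igfbp4 and Thy1, which T cells also express, named after their values were seen. Sparc, a collagen-binding matrix protein, had values of 7.87, 7.35 and 5.23 in the 1.0 µM libraries, against 30.8, 38.5 and 40.5 in the 0.01 µM libraries and a P13.9 mean of 123. Sparc changed by -2.27 ± 0.25 (adjusted p = 7.09e-06). Fn1, fibronectin, had 11.5, 5.68 and 4.61 in the 1.0 µM libraries, against 25.6, 34.3 and 41.2 in the 0.01 µM libraries and a P13.9 mean of 277. Fn1 changed by -2.13 ± 0.30 (adjusted p = 0.000102). Col1a2, a collagen I chain, had means of 1.94 at 1.0 µM and 17.4 at 0.01 µM and 51.4 in P13.9. Col1a2 changed by -2.62 ± 0.35 (adjusted p = 5.42e-05). For these 3 genes the 0.01 µM libraries stood between the 1.0 µM libraries and P13.9 cells alone. The same held for Cavin1, a coat protein of caveolae (means 10.7 at 1.0 µM and 53.3 at 0.01 µM, P13.9 mean 174), Ctsl, cathepsin L (6.55 at 1.0 µM and 33.9 at 0.01 µM, P13.9 mean 192), and S100a4 (31.3 at 1.0 µM and 134 at 0.01 µM, P13.9 mean 209). Ccnd1, cyclin D1, was at 7.60 at 1.0 µM and 64.7 at 0.01 µM with a P13.9 mean of 107. Ccnd1 changed by -3.00 ± 0.28 (adjusted p = 1.69e-06). Csf1, the macrophage growth factor, was at 12.8 at 1.0 µM and 90.3 at 0.01 µM with a P13.9 mean of 91.0. Csf1 changed by -2.99 ± 0.41 (adjusted p = 7.10e-05). After the subtractions by the fibroblast genes and by the other set, Ccnd1 (-4.50 and -4.11), Csf1 (-3.89 and -3.71) and S100a4 (-2.15 and -2.27) were still called lower. Cavin1 was called lower only by the genes with no naive read. Ctsl had a change of 0 by both sets because its subtracted values were set to 0, so its fall could not be tested there. Cd63 and Rpl39l also fell (P13.9 means 468 and 278), but both have near-identical copies. Sparc, Fn1 and Col1a2 help define the share by fibroblast genes, and subtracting that share removes most of their fall by construction. By the genes with no naive read Sparc and Col1a2 were still called lower (-2.48 for both, adjusted p = 0.00352 and 0.0107). Fn1 had a change of 0 there because its subtracted values were set to 0. Once the share by fibroblast genes was subtracted, 297 of the 698 were still called lower and 18 were called higher; by the genes with no naive read these were 367 and 5. Of the 655 higher genes, 351 and 449 were still called higher, and 0 were called lower.

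**Figure D3:**
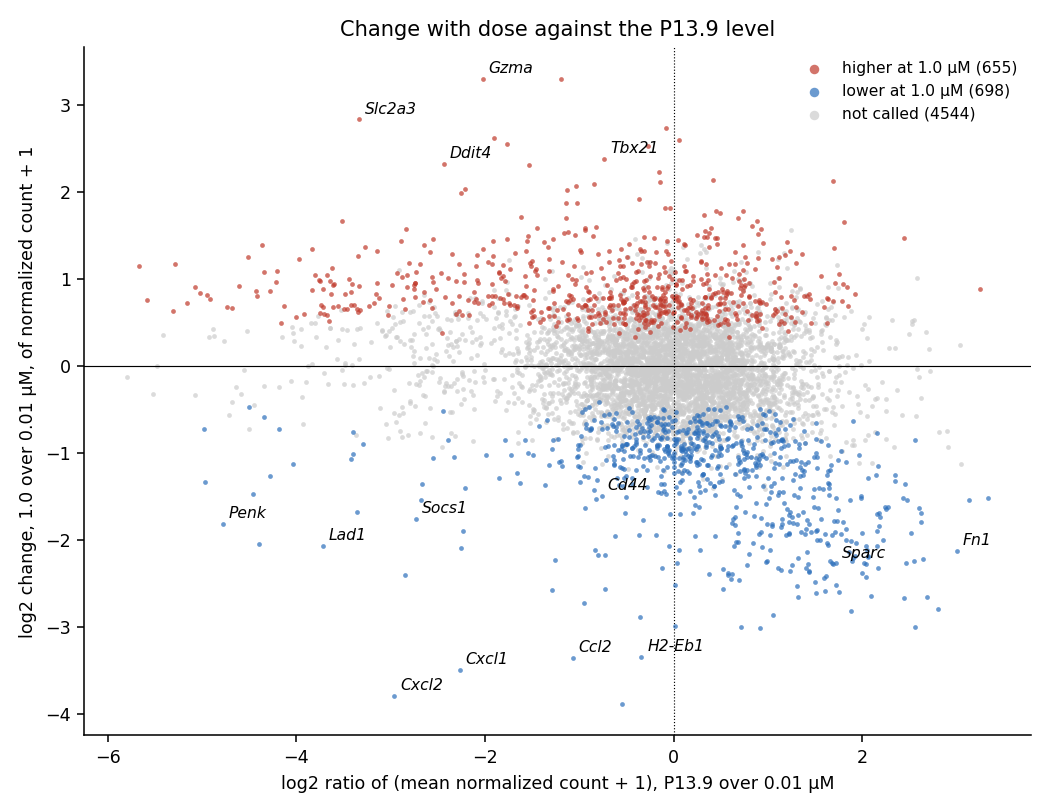
Log2 change at 1.0 over 0.01 µM (vertical axis) of 5897 genes against the log2 ratio of the P13.9 mean to the 0.01 µM mean (horizontal axis), both of normalized count + 1; each point is a gene, red called higher, blue called lower, grey not called. Lower genes such as Sparc and Fn1 lie to the right, where P13.9 cells have more, and Cxcl1, Cxcl2, Penk, Lad1 and Socs1 lie to the left.

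Inflammatory chemokine genes were lower at 1.0 µM, and the 0.01 µM libraries held more of several of them than P13.9 cells alone. Of 9 tested members 7 were lower and 1, Ccl5, higher (median -2.58). Cxcl1, a neutrophil attractant, had values of 25.2, 18.1 and 22.4 in the 1.0 µM libraries, against 210.2, 269 and 296 in the 0.01 µM libraries. Cxcl1 changed by -3.50 ± 0.17 (adjusted p = 2.20e-10). The mean was 52.9 in P13.9 cells and 13.8 in naive cells. Cxcl2, of the same family, had 13.6, 6.69 and 10.5 in the 1.0 µM libraries, against 144, 171 and 138 in the 0.01 µM libraries. Cxcl2 changed by -3.79 ± 0.25 (adjusted p = 2.09e-08). In P13.9 cells its mean was 18.4. Their 0.01 µM means were 4.89 and 8.17 times the P13.9 mean. Ccl2, a monocyte attractant, had 31.0, 9.03 and 26.4 in the 1.0 µM libraries, against 167, 229.5 and 243 in the 0.01 µM libraries. Ccl2 changed by -3.36 ± 0.33 (adjusted p = 2.44e-06). P13.9 cells averaged 101. Ccl7 was at 4.06 at 1.0 µM and 60.8 at 0.01 µM and 41.3 in P13.9. Ccl7 changed by -3.89 ± 0.43 (adjusted p = 8.98e-06). Ccl9 was at 8.03 at 1.0 µM and 54.1 at 0.01 µM and 21.5 in P13.9. Ccl9 changed by -2.58 ± 0.32 (adjusted p = 3.24e-05). The ratio of 0.01 µM to P13.9 was 2.12 for Ccl2, 1.47 for Ccl7 and 2.52 for Ccl9. After the subtractions the changes of the 7 lower genes were -5.03 to -2.18. These genes have more at 0.01 µM than P13.9 cells do, and the subtraction deepens such falls by its construction. Ccl5 changed by 0.90 as reported and by 0.85 and 0.89 after the subtractions, where it had no call (adjusted p = 0.0780 and 0.0614). Which cells made the transcripts was not tested. Tnf, which induces these genes in fibroblasts, was at 2.46 ± 0.716 at 1.0 µM and 8.54 ± 3.13 at 0.01 µM, with a P13.9 mean of 7.89. Tnf changed by -1.44 ± 0.32 (adjusted p = 0.00326). H2-Eb1, an MHC class II chain, was at 0.850 ± 0.653 at 1.0 µM and 17.1 ± 1.62 at 0.01 µM with a P13.9 mean of 13.3. H2-Eb1 changed by -3.34 ± 0.39 (adjusted p = 1.38e-05). Cd80, a ligand of the receptors CD28 and CTLA-4, was at 1.86 ± 0.456 at 1.0 µM and 10.9 ± 2.97 at 0.01 µM with a P13.9 mean of 20.3. Cd80 changed by -2.04 ± 0.33 (adjusted p = 0.000313).

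The promoter windows of Cxcl1 and Cxcl2 hold the same 11 letters, GGGAATTTCCC, which match GGGANNTTC, a form of the NF-kappa-B site, on both strands, the matches overlapping. The windows are RefSeq's on GRCm38.p6, at chr5:90890995-90891294 (forward strand) and chr5:90903649-90903948 (forward strand), 5′ to 3′. Capitals mark this match, which begins at -71 in Cxcl1 and -97 in Cxcl2 relative to the start site, and a CACGT in Cxcl1, the reverse complement of ACGTG.
Cxcl1: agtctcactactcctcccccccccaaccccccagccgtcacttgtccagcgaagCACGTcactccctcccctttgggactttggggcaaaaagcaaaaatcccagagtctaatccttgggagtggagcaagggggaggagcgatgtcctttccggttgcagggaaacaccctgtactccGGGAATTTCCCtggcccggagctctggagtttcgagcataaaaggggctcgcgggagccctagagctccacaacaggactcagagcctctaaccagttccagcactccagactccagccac
Cxcl2: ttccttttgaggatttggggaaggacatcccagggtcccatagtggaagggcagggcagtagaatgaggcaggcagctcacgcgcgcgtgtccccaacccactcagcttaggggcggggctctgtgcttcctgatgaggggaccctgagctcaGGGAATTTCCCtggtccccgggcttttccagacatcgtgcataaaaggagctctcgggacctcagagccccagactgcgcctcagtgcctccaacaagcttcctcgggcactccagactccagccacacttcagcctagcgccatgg
At least 1 window held the motif in 4.47% of 27025 genes, in 5 of the 13 listed chemokine genes that have a window and in 3 of the 5 that were called. Of the genes of the NF-kappa-B family and feedback list, 12 of 15 were not called, Tnf and Tnfaip2 (P13.9 mean 57.5) were lower, and Bcl3, a nuclear cofactor of NF-kappa-B, was higher. That is 13.3% lower and 6.67% higher, against 11.8% and 11.1% of all tested genes. Bcl3 changed by 1.05 ± 0.20 (adjusted p = 0.000991) and had no call after the fibroblast-gene subtraction (adjusted p = 0.108).

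The 18 lower genes that averaged at most 1 in P13.9 cells include several T cell genes. Trat1, an adaptor of the T cell receptor complex, had values of 13.1, 21.1 and 10.1 in the 1.0 µM libraries, against 40.4, 34.3 and 37.4 in the 0.01 µM libraries and a P13.9 mean of 0.223. Trat1 changed by -1.34 ± 0.23 (adjusted p = 0.000566). Tiam1, an activator of Rac, had 16.3, 16.0 and 7.38 in the 1.0 µM libraries, against 33.3, 32.2 and 29.0 in the 0.01 µM libraries and a P13.9 mean of 0.669. Tiam1 changed by -1.26 ± 0.25 (adjusted p = 0.00146). Marcks, a substrate of protein kinase C, had 15.7, 11.7 and 9.53 in the 1.0 µM libraries, against 38.4, 35.9 and 32.0 in the 0.01 µM libraries and a P13.9 mean of 0.659. Marcks changed by -1.47 ± 0.24 (adjusted p = 0.000321). In these 3 genes every 1.0 µM value lay below every 0.01 µM value. Bcl11b, a T cell lineage factor, was at 25.7 ± 5.39 at 1.0 µM and 38.7 ± 4.73 at 0.01 µM with a P13.9 mean of 0.953. Bcl11b changed by -0.59 ± 0.20 (adjusted p = 0.0381). It lost its call without 1.0 A, 1.0 C, 0.01 A or 0.01 B (adjusted p 0.0505 to 0.170). Lad1 was at 2.17 ± 0.564 at 1.0 µM and 12.2 ± 1.63 at 0.01 µM and had no read in P13.9 cells. Lad1 changed by -2.07 ± 0.31 (adjusted p = 0.000168). Others of the 18 were Ptger4, a prostaglandin E2 receptor (-1.36, P13.9 mean 0.698), Inpp4b, a phosphoinositide phosphatase (-1.13, P13.9 mean 0.370), and Pde3b, a cyclic nucleotide phosphodiesterase (-0.76, P13.9 mean 0.256), named after their values were seen.

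The calprotectin genes S100a8 and S100a9, products of neutrophils and monocytes, were also among them. S100a8 had 9.45, 5.35 and 4.00 in the 1.0 µM libraries, against 27.6, 25.7 and 30.0 in the 0.01 µM libraries and a P13.9 mean of 0.370. S100a8 changed by -2.05 ± 0.29 (adjusted p = 0.000109). S100a9 was at 4.04 ± 2.89 at 1.0 µM and 13.8 ± 3.54 at 0.01 µM with a P13.9 mean of 0.446. S100a9 changed by -1.68 ± 0.37 (adjusted p = 0.00320). In naive cells they were far higher, at 483 ± 69.8 and 339 ± 90.5. The 6 myeloid markers were also lower at 1.0 µM as a sum, at low values and with no test of single genes. They summed to 2.34 to 5.77 at 1.0 µM, 5.86 to 7.76 at 0.01 µM and 82.0 to 125.6 in naive cells, with 0 of the 6 at 0 in either dose. In the myeloid and B cell list 4 of 5 tested genes were lower. These were S100a8 and S100a9 themselves, and H2-Eb1 and Cd80, which P13.9 cells express, so the count adds no separate myeloid gene. The part of myeloid cells in the result was not tested.

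Penk, which encodes proenkephalin, and genes of cytokine feedback were lower with P13.9 means just above 1 or higher. Penk had values of 21.0, 17.4 and 24.0 in the 1.0 µM libraries, against 70.7, 69.3 and 86.4 in the 0.01 µM libraries, with a P13.9 mean of 1.78. Penk changed by -1.82 ± 0.16 (adjusted p = 6.05e-07). Socs1, an inhibitor of JAK kinases, had 3.67, 3.01 and 3.69 in the 1.0 µM libraries, against 13.4, 13.91 and 14.8 in the 0.01 µM libraries, with a P13.9 mean of 1.26. Socs1 changed by -1.76 ± 0.24 (adjusted p = 6.59e-05). For both, the highest 1.0 µM library was well below the lowest 0.01 µM library. Cish, a STAT5 target, was at 11.4 ± 1.61 at 1.0 µM and 24.8 ± 1.62 at 0.01 µM with a P13.9 mean of 3.39. Cish changed by -1.06 ± 0.21 (adjusted p = 0.00161). Socs2 was at 7.02 ± 0.697 at 1.0 µM and 16.0 ± 2.27 at 0.01 µM with a P13.9 mean of 9.33. Socs2 changed by -1.08 ± 0.23 (adjusted p = 0.00281). In the whole list of cytokine receptors and feedback genes 4 of 19 were higher and 5 lower, and 1 was higher after each subtraction. Il21r was higher (0.83 ± 0.18), with an adjusted p of 0.335 and 0.0620 after both subtractions.

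Immediate early and activation genes split, with 6 higher and 5 lower of 23 (median -0.10). Junb, an AP-1 subunit, had values of 199, 230.3 and 235 in the 1.0 µM libraries, against 104, 121 and 99.9 in the 0.01 µM libraries. Junb changed by 1.03 ± 0.14 (adjusted p = 5.40e-05), whereas Jun was at 4.74 ± 0.476 at 1.0 µM and 11.7 ± 2.55 at 0.01 µM with a P13.9 mean of 28.0. Jun changed by -1.12 ± 0.27 (adjusted p = 0.00564). P13.9 cells express Jun, and its change was 0.66 after the fibroblast-gene subtraction, with no call. Cd69 was at 4.25 ± 0.524 at 1.0 µM and 6.36 ± 1.24 at 0.01 µM with no call, and was called lower after the fibroblast-gene subtraction (adjusted p = 0.0313). Chaperone genes had 5 lower and 2 higher of 17 in the endoplasmic reticulum, and 4 lower and 1 higher of 17 in the cytosol and mitochondria. Hspa5, the main chaperone of the endoplasmic reticulum, had 93.4, 145 and 115 in the 1.0 µM libraries, against 218, 242 and 201 in the 0.01 µM libraries and a P13.9 mean of 264. Hspa5 changed by -0.92 ± 0.15 (adjusted p = 0.000335). Hspd1, a mitochondrial chaperonin, was at 12.5 ± 1.47 at 1.0 µM and 21.7 ± 1.75 at 0.01 µM with a P13.9 mean of 25.6. Hspd1 changed by -0.75 ± 0.19 (adjusted p = 0.00964). Dnaja1 was at 12.7 ± 0.385 at 1.0 µM and 25.8 ± 3.43 at 0.01 µM with a P13.9 mean of 24.1. Dnaja1 changed by -0.96 ± 0.18 (adjusted p = 0.00118). Amino acid transport and one-carbon genes were lower in 2 (11.8%, as among all tested genes) and higher in 0 of 17, Slc38a2 and Slc7a1 (P13.9 means 131 and 55.1). Slc38a2 lost its call in 3 of the 6 leave-outs, without 0.01 B, 0.01 C or 1.0 C, and Slc7a1 in 4, without 0.01 A, 0.01 B, 0.01 C or 1.0 B (adjusted p up to 0.103 and 0.0815). Mitochondrially encoded genes were lower in 2 and higher in 0 of 7, mt-Nd4 and mt-Cytb (P13.9 means 1392 and 885). None of these 4 was called lower after either subtraction. Slc38a2 was called higher after both (3.94 and 2.26, adjusted p = 2.07e-06 and 0.00261). Costimulatory and inhibitory receptors were higher in 2 and lower in 0 of 10, and follicular helper and regulatory T cell genes in 2 and 0 of 8. The higher ones were 20% and 25%, against 11.1% of all tested genes. Of the BCL2 family and death genes, Bid was at 3.04 ± 0.552 at 1.0 µM and 11.4 ± 0.471 at 0.01 µM (P13.9 mean 18.6), Mcl1 at 34.3 ± 1.88 at 1.0 µM and 50.7 ± 1.90 at 0.01 µM (P13.9 mean 63.1). Bak1, a pore former of apoptosis, was higher by 0.59 ± 0.16, a call lost without 0.01 C (adjusted p = 0.0598) and after the subtractions (0.238 and 0.0864). In that list 7 of 13 were not called. Cholesterol synthesis genes split as well, with 4 higher and 3 lower of 18. Srebf2, their main regulator, rose by 1.08 ± 0.16. Hmgcs1, an early enzyme, was at 9.87 ± 4.35 at 1.0 µM and 22.2 ± 3.55 at 0.01 µM (P13.9 mean 10.7, log2 change -1.16 ± 0.25, adjusted p = 0.00274). Among actin, annexin and S100 genes, S100a6, Tagln2 and Crip1 were higher (1.04, 0.85 and 1.32). Anxa1, a target of glucocorticoids, was at 4.13 ± 2.29 at 1.0 µM and 27.9 ± 3.73 at 0.01 µM with a P13.9 mean of 40.5. Anxa1 changed by -2.57 ± 0.34 (adjusted p = 5.54e-05). The whole list had 8 higher and 5 lower of 25.

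The comparison of 10.0 with 0.1 µM is the other one of doses 100-fold apart with sample numbers in 1 series, and it shares no library with 1.0 against 0.01 µM. It gave 133 calls in the same fit (2.26%), 26 higher and 107 lower. The difference of the 2 changes was called in 601 genes (10.2%). By its arithmetic this difference also sets the middle doses, 0.1 and 1.0 µM, against the end doses, 0.01 and 10.0 µM. Across the 5897 genes Pearson's r between the changes was 0.14 and Spearman's rho 0.04, as a description over genes that share libraries. Of the 655 genes higher at 1.0 µM, 345 (52.7%) were called in the difference, 5 were called higher at 10.0 µM and 32 lower, and their median change at 10.0 over 0.1 µM was -0.11. Of the 698 lower genes, 136 (19.5%) were called in the difference, and 40 were lower at 10.0 µM as well. The P13.9 share also differed between 10.0 and 0.1 µM, at 1.96% and 8.91% by the fibroblast genes.

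Gzma had the largest difference among the named genes. Its means were 4.38 at 10.0 µM and 88.4 at 0.1 µM, a change of -4.07 ± 0.22, opposite to that at 1.0 over 0.01 µM. The difference was 7.37 ± 0.31 (adjusted p = 2.26e-11). Across the 4 doses its mean was thus high at 0.1 and 1.0 µM and low at 0.01 and 10.0 µM. The difference also tests these middle doses against the end doses. The pattern spans both series of sample numbers, and steps between neighbouring doses were not tested. Glycolysis genes had a median of -0.12 at 10.0 over 0.1 µM, with 0 higher and 1 lower, and 18 of 21 were called in the difference. Slc2a3 changed by -1.20 ± 0.24 there, Egln3 by -1.34 ± 0.22 and Id2 by -1.04 ± 0.18, all against the direction at 1.0 over 0.01 µM. Tbx21 rose in both, by 1.09 ± 0.26 at 10.0 over 0.1 µM, with a difference of 1.28 ± 0.37 (adjusted p = 0.0333). Gata3 fell there by 0.95 (adjusted p = 0.00490, P13.9 mean 2.21), and its difference of 0.53 ± 0.24 was not called (adjusted p = 0.159). Maf and Cxcr6 fell at 10.0 over 0.1 µM (-2.06 ± 0.25 and -2.40 ± 0.28) and not at 1.0 over 0.01 µM, with differences of 2.06 ± 0.35 and 2.96 ± 0.39 (adjusted p = 0.00108 and 9.73e-05). Socs1 and Socs2 rose there (1.19 ± 0.24 and 1.27 ± 0.23) where they fell at 1.0 over 0.01 µM. At 10.0 over 0.1 µM 6 of 14 fibroblast matrix genes and 4 of 9 inflammatory chemokine genes were lower and 0 of either list higher. Sparc changed by -1.40 ± 0.25 and Cxcl1 by -1.35 ± 0.17 at 10.0 over 0.1 µM, the difference for Sparc not called (adjusted p = 0.114) and that for Cxcl1 called (-2.15 ± 0.24).

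**Figure D4:**
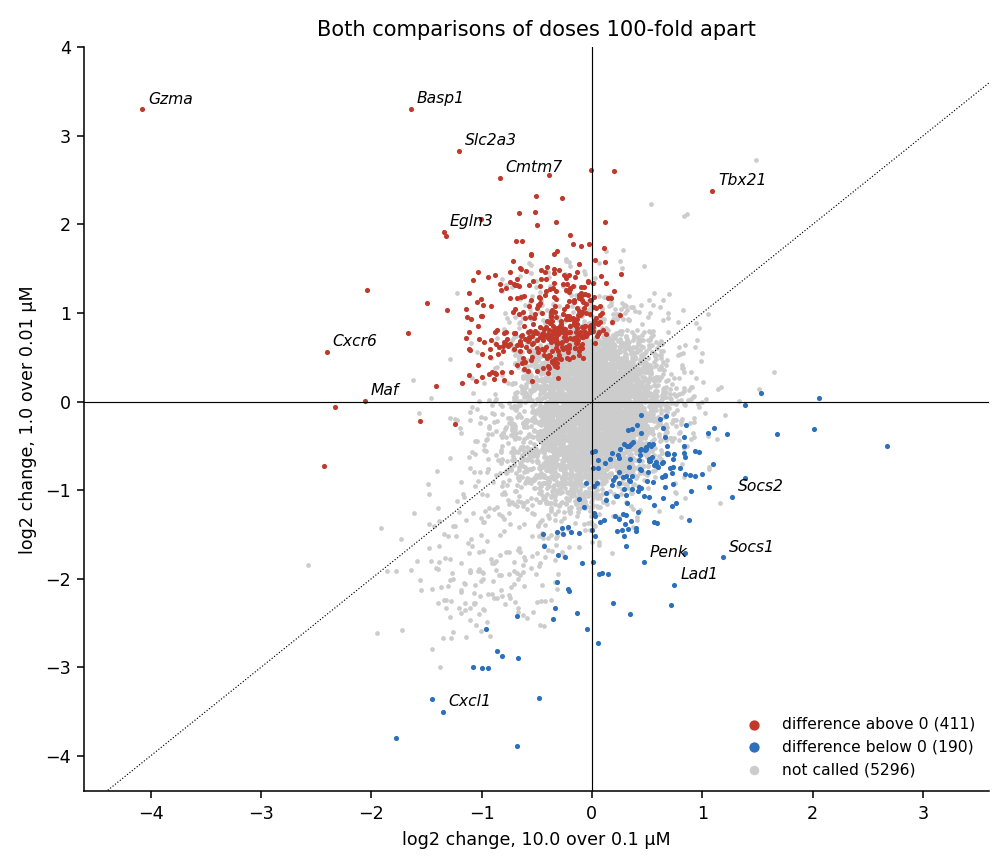
Log2 change at 1.0 over 0.01 µM (vertical axis) against that at 10.0 over 0.1 µM (horizontal axis) for 5897 genes; red and blue points are the 411 and 190 genes whose difference of the changes was called above and below 0, grey points the rest, and the dotted line marks equal changes. Gzma, Basp1, Slc2a3 and Egln3 lie at the upper left, Socs1, Socs2, Penk and Lad1 at the lower right, and Tbx21 at the upper right.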

How the data were processed

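The authors deposited 1 table of normalized counts, a signal scaled by median of ratios, per the file's name and the submitters' processing notes, which list DESeq2, STAR 2.6.1d and HTSeq 0.9.1. Annotation and strand setting: not given in the sources used here. Values are whole reads divided by 1 factor per library: 284543 of 284544 came out whole within 1e-05 reads, and the recovered reads lie far below the depth the labels state. Of 15808 features, 111 without a name were left out (1.94% to 4.83% of the reads at 1.0 and 3.61% to 4.31% at 0.01 µM). Counting intervals cover counting error only.

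The main test was limma 3.58.1 in R 4.3.3 (lmFit, eBayes with trend) on log2(value + 1), which understates changes of low genes, over the 12 activated libraries with 1 mean per dose, for 5897 genes reaching 5 in 3 or more libraries, with Benjamini-Hochberg adjustment. The naive libraries, shallower, stayed out. edgeR 4.0.16 and DESeq2 1.42.0 on the recovered reads were alternatives; edgeR called 1602 genes. Scripts were tested on simulated data. The P13.9 share of a library is a median, over markers, of value divided by P13.9 mean. The alternatives subtract that share of the P13.9 mean, set values below 0 to 0 and rescale the rest. Where many values of a gene were set to 0, its change after subtraction can be 0 or very large and decides little.

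Groups come from the sample titles. The comparison, the 30 gene lists and the tests were chosen with earlier results of these data known. Genes were named by rule: the 15 largest rises and falls among calls without overlap that average 20 or more, the 10 largest such falls averaging at most 1 in P13.9, up to 5 members a list by adjusted p, 26 genes of T helper biology and activation, and the 8 genes in each direction with the smallest adjusted p for the difference of the changes; which of these are described, and others said to be, were chosen after their values were seen. Not analysed here: Foxp3, Il17a and Cxcr5. Promoter windows come from RefSeq, and not every gene has one.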

Additional observations from a re-analysis of the deposited data

Results flagged for a closer look

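The change at 1.0 over 0.01 µM and the change at 10.0 over 0.1 µM differed, by the contrast of both in the limma fit, in 601 genes. On the log2 scale the named genes with a positive difference were Gzma (7.37), Basp1 (4.94), Slc2a3 (4.04), Cmtm7 (3.36), Egln3 (3.26), Ddit4 (2.83), S100a6 (2.35) and Npc2 (1.97). Those with a negative difference were Socs1 (-2.95), Lad1 (-2.81), Socs2 (-2.35), Penk (-2.29), Cxcl1 (-2.15), Cpox (-1.73), Snhg3 (-1.50) and Hspa9 (-1.20). The 2 comparisons cover different doses, 0.01 to 1.0 µM and 0.1 to 10.0 µM. By its arithmetic their difference is also the middle doses against the end doses. They lie in different series of sample numbers, and the P13.9 share moved by a different amount in each. The part of each of these in the differences was not tested.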

How the results depend on the processing

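Of 1353 calls, 1332 were also called by edgeR (1602 calls) and 1138 by DESeq2 (1190). Calls at 1.0 against 0.01 µM, at 10.0 against 0.1 µM and for the difference numbered 312, 7 and 55 with the naive libraries in the fit, and 528, 62 and 367 among the fewer genes that average 20 or more. With array weights the last 2 were 293 and 1019. Subtracting the P13.9 share left 36 and 49 calls at 10.0 against 0.1 µM. Leaving out 1 library gave 859 to 1613, 93 to 235 and 384 to 902 calls; those of 1.0 against 0.01 µM were 894 without 0.01 A and 859 without 0.01 B, and 1613 without 1.0 B. Higher genes made up 48.4% of the calls as reported, 64.9% and 60.4% after the subtractions, 31.9% with no filter and 75.9% at a mean of at least 20. Of the 18 lower genes averaging at most 1 in P13.9, 4 had no P13.9 read.

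No sign turned outside the subtractions among the named genes. Subtracting by the fibroblast genes, the log2 change became 0.24 for Cavin1, 0.52 for Sparc, which is one of the genes that define the share, 0.43 for Rpl39l, 0.84 for Ppic, 0.14 for Cd63, 0.66 for Jun, 0.63 for Lamp1, 0.73 for mt-Cytb, 2.97 for mt-Nd4, 3.94 for Slc38a2, 0.51 for Slc7a1, 0.64 for Car9, 0.30 for Tnfaip2 and 1.20 for Cpox. By the other set it became 0.95 for Cd63, 2.26 for Slc38a2, 0.64 for Car9 and 0.19 for Tnfaip2. These genes have P13.9 means above their 0.01 µM means. Of them only Slc38a2 was called higher after a subtraction, and it was by both sets.

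With the letters as a replicate block 1234 genes were called, and 98 and 495 in the other comparisons. Same-letter correlations of deviations were -0.16, 0.10 and 0.22, and not every library correlated best with its own letter, so the letters are not taken as pairs. The difference could not be fitted on the 6 libraries alone. A value of 1 is 2 to 6 reads, which limits low genes.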

Other observations

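The following 4 genes, called at 1.0 against 0.01 µM, belong to none of the lists. Impa2, an inositol monophosphatase, averaged 35.8 at 1.0 µM and 7.47 at 0.01 µM, a log2 change of 2.03 ± 0.29. AA467197 averaged 37.9 at 1.0 µM and 9.96 at 0.01 µM, a change of 1.82 ± 0.19. Npc2, a cholesterol carrier of lysosomes, averaged 218 at 1.0 µM and 87.4 at 0.01 µM, with a change of 1.31 ± 0.12. Snhg3, a host gene of small nucleolar RNAs, was lower, at 44.3 at 1.0 µM and 80.3 at 0.01 µM with a P13.9 mean of 60.7 and a change of -0.84 ± 0.15. Epas1 of the T helper 2 list, which encodes HIF-2 alpha, was not called, at 13.2 at 1.0 µM and 21.6 at 0.01 µM (change -0.72 ± 0.28, adjusted p = 0.0708, P13.9 mean 0). It was called lower after the subtractions of the P13.9 share (-1.28 and -1.04) and fell at 10.0 over 0.1 µM by 2.43.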
